A study of Homo sapiens with 6 samples.

Results

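The 37 genes of the human mitochondrial genome, taken as every gene whose name starts with MT-, were measured by RNA-seq in 6 libraries. The labels give the cells as CCRF-SB, a single human lymphoblast-like line of B-cell acute lymphoblastic leukaemia. They were 37 of 58735 annotated genes and comprised 13 mRNAs, 2 rRNAs and 22 tRNAs, all placed on chromosome MT. The design compared 3 libraries called siControl, from cells carrying an empty lentiviral vector, with 3 called siANXA1, from cells carrying a lentiviral vector that silences ANXA1. The former have the genotype WT and the latter ANXA1 down-regulated. All 6 were labelled day 5, grown in RPMI-1640 with FBS and made from total RNA, and puromycin selection is described for the silenced line. The labels do not say whether replicates were separate cultures, so each p-value measures the spread between these libraries, which may be technical.

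The mitochondrial genome is a compact circle inherited apart from the nuclear chromosomes. It encodes core subunits of the respiratory chain complexes I, III and IV and of the ATP synthase, together with the rRNAs and tRNAs needed to translate them inside the organelle. Both strands are transcribed into long precursors, and tRNAs that lie between the other genes are cut out, which releases the mRNAs and rRNAs. Most genes are read from the plus strand, whereas 9 members, MT-ND6 and 8 tRNAs, lie on the minus strand. Neighbouring genes often touch, and a few share bases on the same strand.

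The libraries held 21333951 to 44148505 counts assigned to genes, the fewest in siANXA1 replicate 2. ANXA1, the silenced gene, stood at 3696, 3696 and 3756 in siControl and 1606, 1723 and 1712 in siANXA1, in CPM, the counts scaled to a common library size with TMM factors (log2 fold change -1.14 ± 0.093 SE, edgeR adjusted p = 0.0571). The label of the cell line was set against marker genes, with their CPM taken without TMM factors. Of 10 B cell genes, 2 reached a mean of 1 CPM, VPREB1 and IGLL1 were at 0, and the 10 together summed to 2.50 to 5.73 CPM in siControl and 2.59 to 4.64 CPM in siANXA1. All 10 erythroid genes reached a mean of 1 CPM and summed to 754 to 1739.7 CPM in siControl and 4069 to 5850.2 CPM in siANXA1, with no overlap. Sums for 5 T cell genes, CD2 among them at 0, were 10.4 to 38.1 and 14.6 to 23.8 CPM, and for 5 myeloid genes 32.3 to 42.4 and 34.7 to 38.99 CPM. The marker data thus went against the label of a B cell, and the erythroid sum moved with the group, so that its part in each difference below was not tested.

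The first sequences shown are 4 minus-strand tRNA genes that lie side by side, because their estimated counts differed by orders of magnitude. They are MT-TA for alanine (chrMT:5587-5655), MT-TN for asparagine (chrMT:5657-5729), MT-TC for cysteine (chrMT:5761-5826) and MT-TY for tyrosine (chrMT:5826-5891), in the GENCODE 29 transcripts of GRCh38, written 5′ to 3′. Capitals inside each gene mark the anticodon, the triplet that pairs with the codon, and a capital at the start of MT-TC and at the end of MT-TY marks the single base both genes share.
MT-TA: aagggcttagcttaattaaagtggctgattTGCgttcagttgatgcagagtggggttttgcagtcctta
MT-TN: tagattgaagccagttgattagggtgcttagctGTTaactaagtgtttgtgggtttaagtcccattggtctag
MT-TC: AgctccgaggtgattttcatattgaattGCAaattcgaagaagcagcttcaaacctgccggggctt
MT-TY: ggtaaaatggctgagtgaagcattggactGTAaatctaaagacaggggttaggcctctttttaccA

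The second set shows genes on the plus strand that share bases with the next gene. Most members with unstable or near-zero estimates share bases with a same-strand neighbour. MT-ATP8 (chrMT:8366-8572) and MT-ATP6 (chrMT:8527-9207), subunits of the ATP synthase, share 46 bases, in capitals in the last 60 bases of the former and the first 60 of the latter. MT-ND4L (chrMT:10470-10766) and MT-ND4 (chrMT:10760-12137), subunits of complex I, share 7 bases, shown in the same way. MT-ATP6 and MT-CO3 (chrMT:9207-9990), a subunit of complex IV, share 1 base.
MT-ATP8: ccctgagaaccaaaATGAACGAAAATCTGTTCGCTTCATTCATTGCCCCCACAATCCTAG
MT-ATP6: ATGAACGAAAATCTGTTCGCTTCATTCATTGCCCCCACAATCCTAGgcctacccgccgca
MT-ND4L: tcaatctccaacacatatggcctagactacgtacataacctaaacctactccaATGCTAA
MT-ND4: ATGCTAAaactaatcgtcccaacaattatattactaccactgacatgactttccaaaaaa

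**Figure D1:**
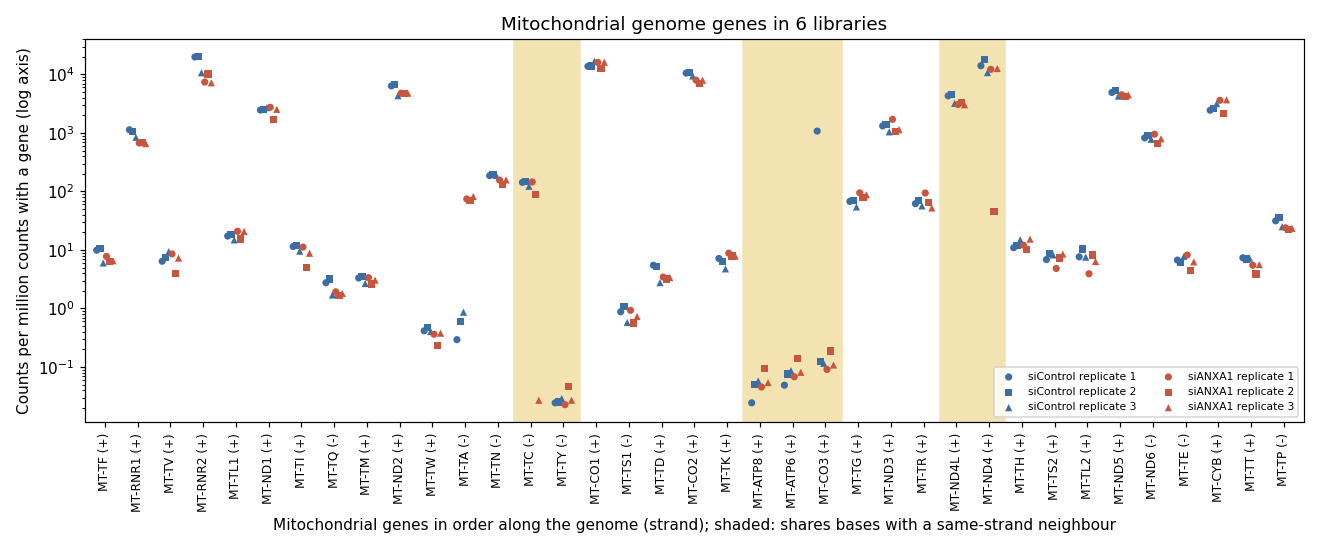
CPM without TMM scaling, on a log axis for the 37 mitochondrial genes in their order along the genome, 1 point per library. MT-TA is the gene in which the groups stand far apart. The shaded genes share bases with a same-strand neighbour. Among them MT-TC and MT-ND4 drop in a single library, and MT-CO3 rises from a few counts in a single library. MT-ATP8, MT-ATP6 and MT-TY stay at a few counts throughout, and MT-ND4L stays high in all libraries.

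Together the mitochondrial genes took up 8.38%, 8.87% and 6.86% of all gene counts in the siControl libraries, in replicate order, and 6.64%, 4.90% and 6.56% in the siANXA1 libraries. The share was lower in every siANXA1 library (exact permutation test, two-sided p = 0.1, the smallest that 3 against 3 allow, and adjusted p = 0.4 over the 24 shares and ratios tested). In bulk RNA, fewer cells of a type and less RNA per cell cannot be told apart.

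The 13 mRNAs held most of these counts, at 6.22%, 6.66% and 5.66% in siControl and 5.77%, 3.75% and 5.72% in siANXA1. These values overlapped (exact permutation p = 0.3), and the mean difference of -1.10 percentage points became -0.43 without siANXA1 replicate 2. That library had 958 counts of MT-ND4, described below. Without MT-ND4 the shares were 4.81%, 4.86% and 4.58% against 4.54%, 3.75% and 4.46%. For the 8 mRNAs that share no base with a same-strand neighbour they were 4.27%, 4.40% and 4.26% against 4.24%, 3.42% and 4.16%. Both of these sets were lower in every siANXA1 library, but siANXA1 replicates 1 and 3 lay close to siControl (exact permutation p = 0.1 each, adjusted p = 0.4).

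The tRNAs took up 0.0595%, 0.0629% and 0.0546% in siControl and 0.0691%, 0.0534% and 0.0506% in siANXA1, with an exact permutation p of 0.9. Their sum thus overlapped between the groups although MT-TA within it did not.

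**Figure D2:**
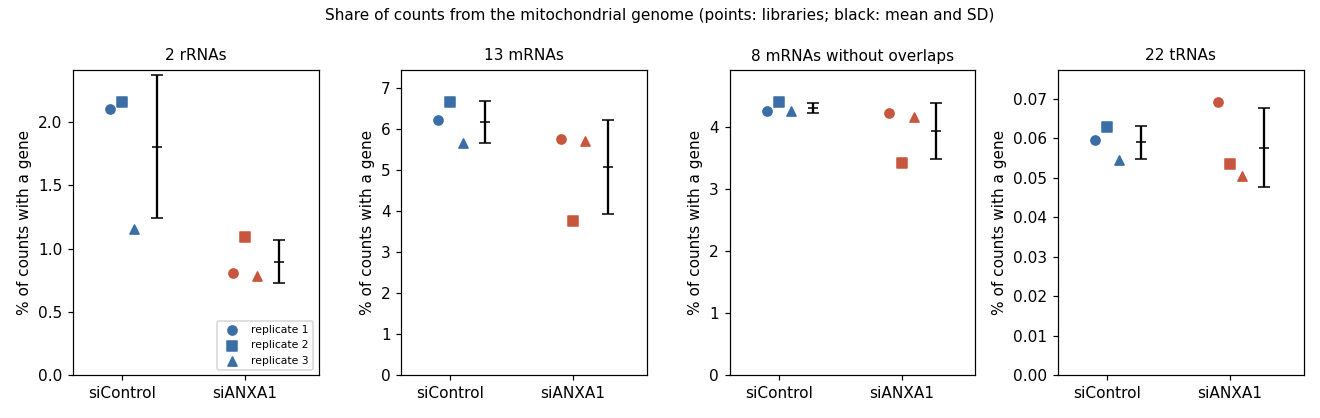
Percent of all gene counts that fell on the 2 rRNAs, all 13 mRNAs, the 8 mRNAs without same-strand overlaps and the 22 tRNAs, with 1 point per library and the mean and SD in black. The rRNA panel and the panel of 8 mRNAs separate the groups, the others do not, and siControl replicate 3 lies nearer to siANXA1 than to the other siControl libraries for the rRNAs.

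The fit across all genes tested 33 of the 37 members. MT-ATP8, MT-ATP6, MT-CO3 and MT-TY did not pass the filter on low counts. Of the 33, 1 gene, MT-TA, passed an adjusted p of 0.05 in edgeR's quasi-likelihood test and rose, against 0.0111% of the 17947 genes tested. None of the 33 was called lower by edgeR, although at an unadjusted p under 0.05 there were 2 members higher and 5 lower, where 7.93% of all genes had such a p (3.40% higher and 4.52% lower), and DESeq2 called 1 member lower. In 11 members the groups did not overlap with TMM scaling, 3 higher and 8 lower in siANXA1 (7 lower without TMM, where MT-ND4L overlapped). Of all genes tested, 14.6% did not overlap, 7.41% higher and 7.24% lower. The median log2 fold change of the tested members was -0.22, with 8 positive and 25 negative, beside 0.01 for all genes. Without siANXA1 replicate 2 the median was -0.11, with 14 positive and 19 negative. The members come from shared precursors and are not independent of one another.

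**Figure D3:**
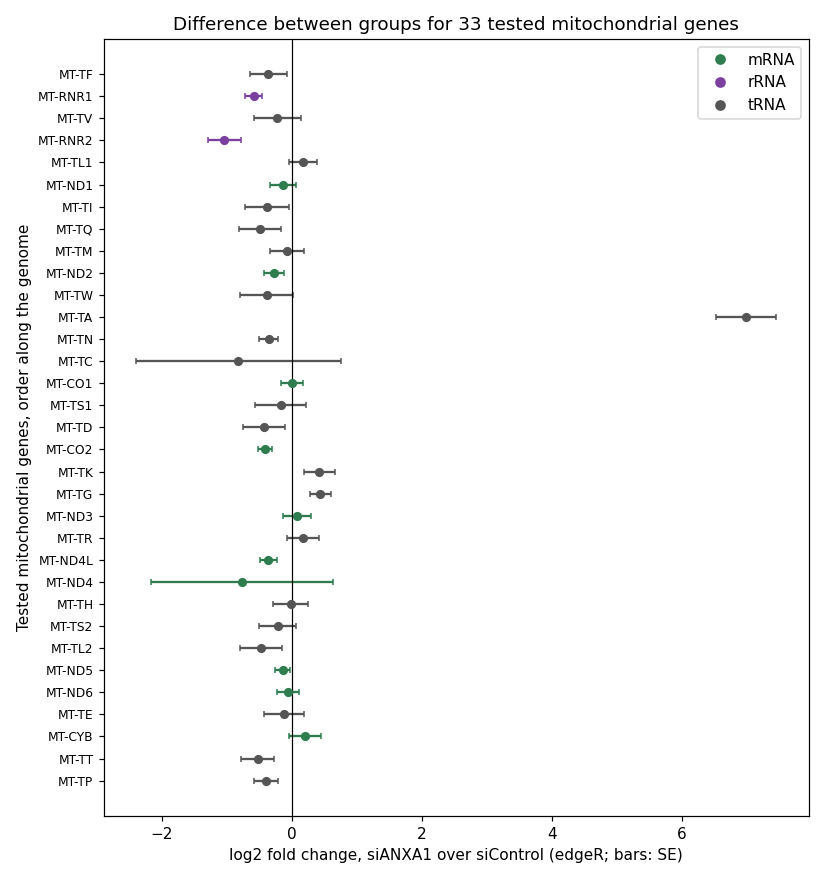
The log2 fold change of siANXA1 over siControl from edgeR, with its SE, for the 33 tested mitochondrial genes in genome order, coloured by kind of RNA. MT-TA lies far to the right at 6.997, both rRNAs lie left of 0, and MT-ND4 and MT-TC have the widest bars.

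The rRNAs form the core of the mitochondrial ribosome, MT-RNR1 (chrMT:648-1601) in the small subunit and MT-RNR2 (chrMT:1671-3229) in the large one, and both were lower in every siANXA1 library. Their joint share of gene counts was 2.10%, 2.15% and 1.15% in siControl and 0.808%, 1.09% and 0.787% in siANXA1, without overlap but with siControl replicate 3 near siANXA1 replicate 2 (exact permutation p = 0.1, adjusted p = 0.4). MT-RNR1 read 1113, 1037 and 877 CPM in siControl and 684, 667 and 665 CPM in siANXA1. The siANXA1 libraries were close together, below all siControl libraries, with a log2 fold change of -0.59 ± 0.13 (SE). MT-RNR1 did not pass edgeR (adjusted p = 0.574) and passed DESeq2 (adjusted p = 0.0331). MT-RNR2 read 19524, 20153 and 11124 CPM in siControl and 7524, 9947 and 7298 CPM in siANXA1. Here siControl replicate 3 lay close to siANXA1 replicate 2, and the mean of 16934 ± 5041 CPM (SD, n = 3) stood against 8256 ± 1469 CPM (SD, n = 3). The log2 fold change was -1.04 ± 0.26 (SE; edgeR adjusted p = 0.605, DESeq2 adjusted p = 0.0711). With each library left out in turn it ranged from -1.27 to -0.90. The lower limit was without siControl replicate 3 (edgeR adjusted p = 0.0943). The other edgeR adjusted p values ran from 0.438 without siANXA1 replicate 2 to 0.999 without siControl replicate 1.

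Per base of gene length, MT-RNR2 exceeded MT-RNR1 by 10.7, 11.9 and 7.76 times in siControl and by 6.73, 9.13 and 6.72 times in siANXA1. siControl replicates 1 and 2 had the highest ratios and the groups overlapped (exact permutation p = 0.2). The counts of both rRNAs, relative to those of the 8 mRNAs without same-strand overlaps, gave 0.492, 0.489 and 0.271 in siControl and 0.191, 0.319 and 0.189 in siANXA1. These also overlapped (exact permutation p = 0.2), with siControl replicate 3 below siANXA1 replicate 2.

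Complex IV, cytochrome c oxidase, passes electrons to oxygen, and its catalytic subunits are encoded here. MT-CO1 (chrMT:5904-7445), the subunit that holds the oxygen-binding site, read 13523, 13714 and 17539.9 CPM in siControl and 16311, 12186 and 16392 CPM in siANXA1. The groups overlapped widely, and its log2 fold change of 0.0036 ± 0.17 (SE) was negative with upper quartile scaling, with scaling by nuclear genes only, with no filter and with the strict filter. MT-CO2 (chrMT:7586-8269), which takes electrons from cytochrome c, read 10368, 10578 and 9801 CPM in siControl and 8126, 6943 and 8067 CPM in siANXA1. All siANXA1 libraries were below all siControl libraries, and the log2 difference was -0.41 ± 0.10 (SE, n = 3 in each group) with an edgeR adjusted p of 0.605. The remaining subunit encoded here, MT-CO3, held 44215 counts in siControl replicate 1 and 4 or 5 counts in each of the other libraries.

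Complex I, NADH dehydrogenase, is the entry point for electrons from NADH, and 7 members encode its membrane arm. MT-ND1 (chrMT:3307-4262) read 2419, 2482 and 2823 CPM in siControl and 2793, 1671 and 2564 CPM in siANXA1. MT-ND2 (chrMT:4470-5511) read 6258, 6572 and 4506 CPM and 4866, 4664 and 4836 CPM, with siControl replicates 1 and 2 above the other 4 libraries. MT-ND5 (chrMT:12337-14148) read 4835, 5212 and 4445 CPM and 4569, 4042 and 4530.5 CPM. None of these separated the groups. MT-ND3 (chrMT:10059-10404) lay between 1049 and 1737 CPM over the 6 libraries. MT-ND6 (chrMT:14149-14673), the only mRNA on the minus strand, lay between 638 and 969.5 CPM, both limits being siANXA1 libraries. Neither separated the groups, and per base MT-ND6 stood at 0.577, 0.583 and 0.631 of MT-ND5 in siControl and at 0.732, 0.545 and 0.612 in siANXA1.

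MT-ND4L read 4231, 4487 and 3343 CPM in siControl and 3113, 3211 and 3072 CPM in siANXA1, with no overlap and a log2 difference of -0.36 ± 0.13 (SE), for which the edgeR adjusted p was 0.627. Without TMM its groups overlapped, with 3212 CPM in siControl replicate 3 and 3296 CPM in siANXA1 replicate 2. MT-ND4, its neighbour, read 13864, 17701 and 11208 CPM in siControl and 12423, 43.8 and 12762 CPM in siANXA1. The low library, siANXA1 replicate 2, held 958 counts where the others held 374260 to 713670, while its MT-ND4L value lay within the range of the others. Per base, MT-ND4 stood at 0.706, 0.850 and 0.723 of MT-ND4L in siControl and at 0.860, 0.0029 and 0.895 in siANXA1. The log2 fold change of MT-ND4, -0.76 ± 1.40 (SE; edgeR adjusted p = 0.877), was -0.18 without that library. MT-CYB (chrMT:14747-15887), cytochrome b of complex III, read 2403, 2560 and 3308 CPM in siControl and 3676, 2125 and 3731 CPM in siANXA1, with overlap.

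The 2 ATP synthase genes were close to 0 throughout. MT-ATP8 held 1 or 2 counts in each library and MT-ATP6 held 2 or 3 although the libraries differed in depth. These are too few for a level or a fold.

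On a scale of CPM per kilobase, without TMM, the mRNAs spanned a wide range of levels. MT-CO2 stood highest at 13114 ± 2188 (SD over 6 libraries), followed by MT-ND4L at 12052 ± 2265, within its spread. Within each library, however, MT-CO2 stood above MT-ND4L, except in siANXA1 replicate 2 (10418 against 11096). MT-CO1 at 9654 ± 1115 and MT-ND4 at 8195 ± 4379 came next and did not differ beyond their spread. The latter value includes the library with few MT-ND4 counts, at 32.6. In siControl alone MT-ND4 stood above MT-CO1, at 10369 ± 2617 against 9631 ± 1124 (SD, n = 3), again within the spread. MT-ND2 stood at 5076 ± 938 and MT-ND3 at 3699.5 ± 722. MT-CYB at 2587 ± 556, MT-ND1 at 2562 ± 395 and MT-ND5 at 2539.85 ± 237 could not be ordered, and MT-ND6 was lowest of the 10 tested mRNAs at 1556 ± 196. On this scale MT-RNR2 stood at 8111 ± 3852 and MT-RNR1 at 881 ± 219.

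Within the 8 mRNAs without same-strand overlaps, siControl replicate 3 differed from the other siControl libraries. MT-CO1 made up 32.3%, 31.6% and 39.6% of their counts in siControl and 37.9%, 36.6% and 38.95% in siANXA1, so that siControl replicate 3 lay with siANXA1. MT-ND2 made up 14.9%, 15.2% and 10.2% in siControl and 11.3%, 14.0% and 11.5% in siANXA1, with siControl replicate 3 the lowest of all. MT-CO2 was the one among the 8 whose share did not overlap, at 24.7%, 24.4% and 22.1% against 18.9%, 20.8% and 19.2%.

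**Figure D4:**
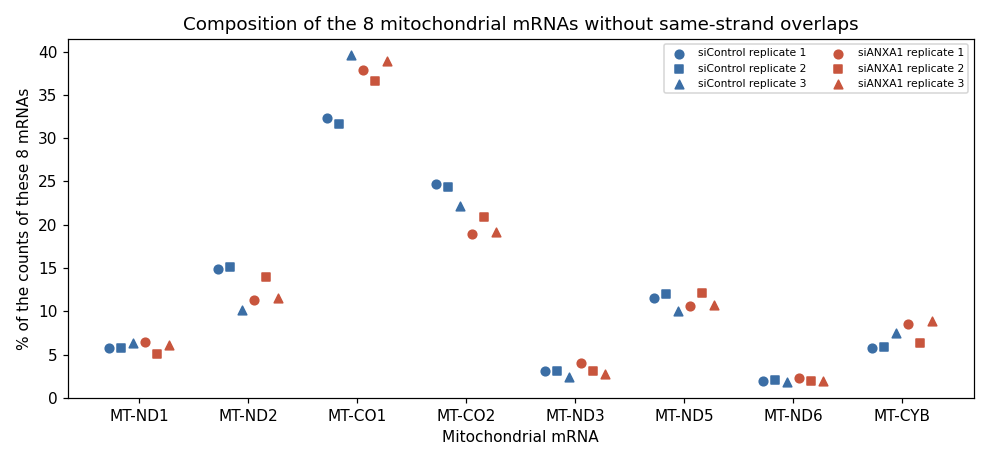
Percent of the summed counts of the 8 mitochondrial mRNAs without same-strand overlaps that fell on each of them, 1 point per library. MT-CO1 takes the largest share, from 31.6% to 39.6%, and MT-CO2 is the one whose siControl points all lie above its siANXA1 points.

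Among the tRNAs, MT-TA was the one called by edgeR. It held 12, 24 and 30 counts in siControl and 3287, 1490 and 3035 counts in siANXA1, which is 0.287, 0.595 and 0.898 CPM against 75.6, 68.05 and 82.9 CPM. Every siANXA1 library lay far above every siControl library, by 6.997 ± 0.46 (SE) on the log2 scale (edgeR adjusted p = 0.0261). The size held when each library was left out, from 6.65 to 7.41, but the call ended without siControl replicate 2 (adjusted p = 0.128) or siANXA1 replicates 1, 2 or 3 (adjusted p = 0.106, 0.0791 and 0.142). The ratio of MT-TA to MT-TN, the next gene on the same strand, was 0.0016, 0.0031 and 0.0046 in siControl and 0.475, 0.533 and 0.520 in siANXA1. MT-TA is 69 bases long, and no base of it lies in another mitochondrial gene on either strand. It lies close to MT-TN, with MT-TA at positions 5587 to 5655 and MT-TN at 5657 to 5729. Whether the difference lay in the RNA or in how counts were estimated was not tested.

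MT-TN read 183, 191 and 196 CPM in siControl and 159, 128 and 159 CPM in siANXA1, lower without overlap (log2 fold change -0.35; edgeR adjusted p = 0.627). MT-TC read 140.4, 144 and 128 CPM in siControl and 148 and 85.4 CPM in siANXA1 replicates 1 and 2, but a single count in siANXA1 replicate 3. MT-TY, which shares the base in capitals with MT-TC, held 1 count in each of the 6 libraries. Thus of 4 adjoining tRNA genes of similar length, 1 separated the groups widely, 1 was lower by a small amount, 1 was lost in a single library and 1 was near 0 throughout.

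Of the other tRNAs with higher means, MT-TG for glycine (chrMT:9991-10058) read 66.4, 69.7 and 56.5 CPM in siControl and 96.2, 76.2 and 88.9 CPM in siANXA1, higher without overlap (edgeR adjusted p = 0.627). MT-TR for arginine (chrMT:10405-10469) read 60.7, 68.4 and 58.97 CPM and 95.5, 62.7 and 52.9 CPM, with overlap. MT-TP for proline (chrMT:15956-16023) read 30.9, 34.8 and 25.96 CPM and 24.2, 21.6 and 23.7 CPM, lower without overlap. Smaller differences without overlap were those of MT-TT for threonine (chrMT:15888-15953), at 7.20, 6.90 and 7.52 CPM against 5.57, 3.79 and 5.68 CPM, and MT-TK for lysine (chrMT:8295-8364), at 7.01, 6.35 and 4.94 CPM against 8.95, 7.67 and 7.92 CPM. MT-TW for tryptophan (chrMT:5512-5579) had 17, 19 and 14 counts against 16, 5 and 14. None of these passed edgeR (adjusted p from 0.627 to 0.845). The other 12 tested tRNAs overlapped between the groups and averaged 0.743 to 19.0 CPM in each group.

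The spread between libraries set members apart from one another. The median within-group SD of log2 CPM (prior count 2) was 0.298 over the 33 tested members, 0.426 over all genes tested and 0.244 over the 2212 nuclear genes at a mean of 100 CPM or more. MT-CO2 and MT-ND5 were among the steadiest, at 0.0992 and 0.107 beside that median of 0.426 over all genes. MT-TC reached 4.26 and MT-ND4 3.34, values that 99.96% and 99.8% of all genes tested stayed below.

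Members that share bases with a same-strand neighbour numbered 7, namely MT-TC, MT-TY, MT-ATP8, MT-ATP6, MT-CO3, MT-ND4L and MT-ND4. In 6 of these 7 the highest library exceeded the lowest by over 4 times in CPM or at least 5 libraries held at most 5 counts. The exception was MT-ND4L. MT-TC, MT-CO3 and MT-ND4 exceeded 4 times between libraries. MT-ATP8, MT-ATP6 and MT-TY did not, and were counted because they stayed near 0 in every library. Among the 30 members with no such neighbour 1 met either limit, MT-TA, the gene called between the groups. These limits were chosen after the values were seen. The counting tool is not given in the sources used here, and the source of the unstable or near-zero values was not tested.

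**Figure D5:**
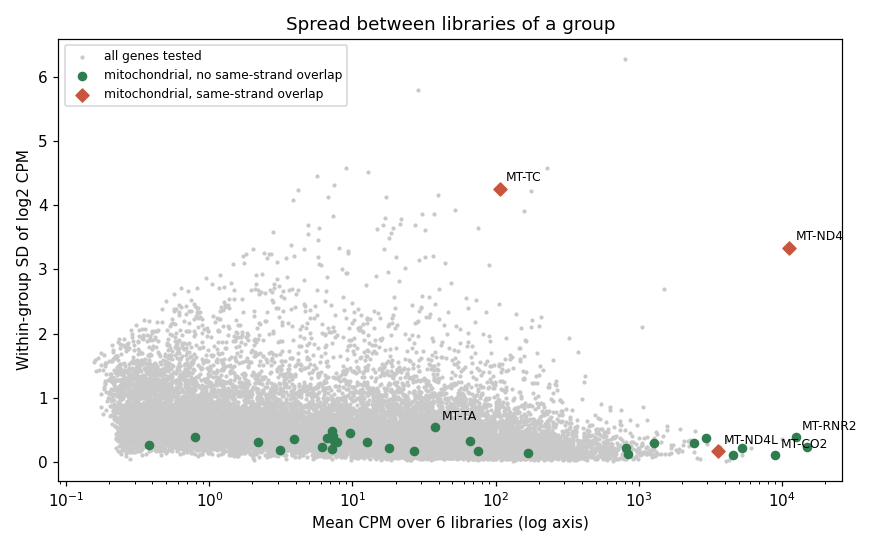
Within-group SD of log2 CPM against the mean CPM over 6 libraries on a log axis, for all genes tested in grey and the tested mitochondrial genes in colour. MT-TC at 4.26 and MT-ND4 at 3.34 stand far above the other mitochondrial genes, whereas MT-ND4L lies with the steady ones.

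Nuclear copies of mitochondrial genes, stretches of mitochondrial DNA that were inserted into chromosomes and can attract the same reads, were examined next. Of 407 named copies, 129 had a count and 5 reached a mean of 5 CPM. MTATP6P1 (chr1:633696-634376), a copy of MT-ATP6 with the same 681 bases of length, read 1131, 1103 and 974 CPM in siControl and 1077, 849.9 and 938 CPM in siANXA1, while MT-ATP6 itself held 2 or 3 counts. The copy differs from MT-ATP6 at 10 of 681 aligned bases (98.5% identity), and the longest identical run is 141 bases. The window of 100 bases, positions 93 to 192 from the gene's start, with the most differences is shown with its 4 differing bases in capitals.
MT-ATP6: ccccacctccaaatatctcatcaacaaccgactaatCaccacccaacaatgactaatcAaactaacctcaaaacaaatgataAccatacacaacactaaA
MTATP6P1: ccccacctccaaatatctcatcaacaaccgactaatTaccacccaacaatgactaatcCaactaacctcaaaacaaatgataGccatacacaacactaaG

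MTND2P28 (chr1:629640-630683), a copy of MT-ND2 at 98.4% identity, held between 13.9% and 16.3% of the counts of MT-ND2 in each library. MTND4P12 (chr5:134926660-134928036), a copy of MT-ND4 at 95.8% identity, read 8.59 to 11.9 CPM over the 6 libraries and 11.4 CPM in siANXA1 replicate 2. In the library with few MT-ND4 counts, MT-ND4L and this copy lay within the range of the other libraries. The source of the low MT-ND4 value was not tested. MTCO3P12 (chr1:634376-634922) and MTND1P23 (chr1:629062-629433) read 4.16 to 15.3 and 2.37 to 7.71 CPM. None of the 5 copies passed edgeR (adjusted p from 0.674 to 0.953) and all 5 overlapped between the groups. A further 16014 rows of the deposited tables carry no gene or position and held 16.9% to 17.7% of all counts, and whether any of them lies on the mitochondrial genome was not tested.

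Sequence shared with other annotated transcripts was counted for each member. All 13 mRNAs shared a stretch of 31 bases with at least 1 other gene, and 8 of 13 a stretch of 75 bases. The shared part was 66.7% of the 31-base windows in MT-CO1, 63.7% in MT-ATP6, 56.9% in MT-ND2, 45.0% in MT-CO3, 21.2% in MT-ND4 and 16.1% in MT-ND4L. In windows of 75 bases the shared part was 36.6% in MT-CO1, 34.4% in MT-ND2, 28.01% in MT-ATP6 and 14.6% in MT-CO3, and 0 in MT-ND4 and MT-ND4L. MT-CO1 had the largest part at both lengths among these 6. The within-group SD of log2 CPM was 0.229 in MT-CO1, 0.211 in MT-ND2, 0.161 in MT-ND4L and 3.34 in MT-ND4. MT-ATP6 and MT-CO3 had not passed the filter on low counts. Whether shared sequence bears on the spread between libraries was not tested. Of the 22 tRNAs, 59 to 75 bases long, 0 shared a window of 31 bases with another annotated transcript, MT-TA and MT-TC included. As 21 of them are shorter than 75 bases, the longer window could not apply to these. Chromosomal stretches outside annotated transcripts were not searched, so unannotated copies of the tRNA genes would have been missed.

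The nuclear genes that copy, transcribe and process the mitochondrial genome were described as 6 lists. Over all 6 lists, 73 genes were tested, 57 had a positive and 16 a negative fold change, and the median log2 fold change was 0.21, beside 0.01 for all genes. With edgeR 0 of the 73 passed the threshold, and at an unadjusted p under 0.05 there were 3 higher and 0 lower, where 3.40% and 4.52% of all genes tested had such a p. DESeq2 and limma-voom also called 0. The median was 0.19 for 11 genes of mitochondrial DNA replication and maintenance, 0.23 for 8 of transcription, 0.35 for 14 of RNA processing, 0.32 for 7 of RNA stability and decay, 0.17 for 20 of rRNA and tRNA modification and 0.10 for 13 translation factors.

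POLRMT, the mitochondrial RNA polymerase, stood at 116 ± 23.5 CPM (SD, n = 3) in siControl and 130.5 ± 11.4 CPM in siANXA1. TFAM, which packages and activates the mitochondrial genome, stood at 106 ± 54.6 and 103 ± 66.5 CPM. SSBP1, the single-stranded DNA-binding protein, stood at 207 ± 37.1 and 261 ± 29.3 CPM, and TOP1MT, a topoisomerase, at 76.3 ± 26.8 and 86.9 ± 8.34 CPM. HSD17B10, a subunit of the nuclease that cuts tRNA 5′ ends, stood at 135 ± 22.6 and 171 ± 15.3 CPM, and TBRG4, a regulator of mitochondrial mRNAs, at 141 ± 40.8 and 155 ± 11.75 CPM. In all of these the groups overlapped, and none passed edgeR (adjusted p from 0.645 to 0.986).

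LRPPRC, which stabilises mitochondrial mRNAs, stood at 666 ± 91.0 and 673 ± 90.1 CPM. SUPV3L1, the helicase of the mitochondrial RNA degradosome, stood at 114 ± 38.0 and 126 ± 27.0 CPM. NSUN2, an RNA methyltransferase, stood at 239 ± 126 and 337 ± 109.8 CPM, and TRUB2, a pseudouridine synthase, at 71.3 ± 27.97 and 126 ± 34.2 CPM, the latter without overlap (edgeR adjusted p = 0.627). TUFM, the elongation factor, and MTIF2, an initiation factor, read 614 ± 41.4 against 598 ± 29.9 CPM and 194 ± 24.9 against 179 ± 8.27 CPM.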

How the data were processed

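The deposited values are estimated counts for each transcript in whole numbers, without normalization by the authors, judged from the file headers and values. Not given in the sources used here were aligner, counting program and strandedness. According to the submitters' processing notes the build was mm10, whereas the rows carry human transcripts whose mitochondrial lengths all matched GENCODE 29 on GRCh38. Both deposited tables held the same 1335690 values. Counts were summed per gene, and 16014 rows without a gene, 16.9% to 17.7% of the counts, stayed out.

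Differences between the groups were fitted in edgeR 4.0.16 under R 4.3.3 (filterByExpr, TMM, robust glmQLFit, glmQLFTest; group only), two-sided, with Benjamini-Hochberg adjustment over 17947 genes and a threshold of 0.05; SE is the log2 fold change divided by the root of F. Shares and ratios used exact permutation tests over libraries. Alternatives were DESeq2 1.42.0, limma-voom 3.58.1, other scalings and filters, a replicate block and each library left out. The edgeR test was checked on simulated counts, and a gene that did not pass it is not thereby shown to be unchanged. The named genes were all members, nuclear copies at a mean of 5 CPM or more, and of each list those called or the 2 most abundant. The members, lists and tests were chosen with earlier results of these data known. Sequences came from the GENCODE 29 transcripts, and nuclear copies were aligned with Biopython 1.88. How reads of overlapping or near-identical genes, or of opposite strands, were assigned is not known here.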

Additional observations from a re-analysis of the deposited data

How the results depend on the processing

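With 6 libraries, 29 of the 33 tested members kept their direction and their side of the threshold under those of the 8 other settings that gave them a value. The strict filter tested 28 members, leaving out MT-TQ, MT-TD, MT-TW, MT-TS1 and MT-TM, and DESeq2 gave no adjusted p for MT-TW. The 4 members that did not keep them were MT-TA and MT-RNR1, given here and above, MT-CO1 and MT-TH. MT-CO1 turned to -0.0497 with upper quartile scaling, -0.0059 with scaling by nuclear genes, -0.016 with no filter and -0.024 with the strict filter, and MT-TH to 0.0023 with limma-voom. DESeq2 called 258 genes and 2 members. The replicate block called 0 genes and 0 members (MT-TA: log2 fold change 7.08, adjusted p = 0.334). Same-numbered libraries deviated together with correlations of -0.114, 0.263 and 0.256. siControl replicate 1 correlated best with siANXA1 replicate 2, and siControl replicates 2 and 3 with the siANXA1 library of their own number. The numbers were not taken to pair the samples, because the labels do not say that they mark a shared culture.

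With 1 library left out, 0 to 7 genes and 0 to 1 members were called. The difference in the mRNA share ranged from -1.44 to -0.43 percentage points, in the rRNA share from -1.23 to -0.73, and in the tRNA share, which changed sign, from -0.0070 to 0.0023. Log2 fold changes that changed sign ranged from -0.069 to 0.14 for MT-CO1, -0.28 to 0.060 for MT-ND1, -0.18 to 0.22 for MT-ND3, -0.21 to 0.092 for MT-ND6, -0.36 to 0.093 for MT-TE, -0.20 to 0.15 for MT-TH, -0.17 to 0.033 for MT-TM, -0.12 to 0.34 for MT-TR, -0.38 to 0.020 for MT-TS1 and -0.46 to 0.054 for MT-TV. The cause was not tested. Leaving out the mRNAs with same-strand overlaps, or MT-TA from the tRNA sum, was chosen after seeing the data and gave differences of -0.37 and -0.0088 percentage points.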
